A study of Mus musculus with 6 samples.

Results

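The genes described here are 10 factors and markers that embryonic stem cells (ESCs) and induced pluripotent stem cells (iPSCs) share: Pou5f1, Sox2, Sall4, Lin28a, Utf1, L1td1, Fbxo15, Nr0b1, Dppa2 and Dppa4. They were chosen by name, and all 10 had a row in the deposited table, which holds 25567 entries for genes and transposable element subfamilies. RNA was sequenced from mouse iPSCs, which are cells brought by reprogramming to a state like that of ESCs. The 3 SRF KO libraries came from cells of genotype SRFΔ/Δ, which lack serum response factor because its gene was deleted, and the 3 WT libraries from cells that carry the conditional allele SRFf/f. Both were cultured in medium with serum. The labels leave unsaid which Cre removed the allele, how the cells were reprogrammed, whether the replicates are clones of their own and whether feeder cells were present. A count per gene symbol does not separate the chromosomal gene from an introduced copy, which matters for Pou5f1 and Sox2, since both are commonly used as reprogramming factors.

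Pluripotent cells are held in their state by a small network of transcription factors. Pou5f1 (OCT4) and Sox2 bind DNA together at composite sites, switch on each other and many ESC genes, and are needed in naive and primed pluripotent cells alike. Around them stand factors such as Sall4 and Nr0b1, RNA-binding proteins such as Lin28a, and markers such as Utf1 and Fbxo15, which OCT4 and SOX2 activate. Serum response factor acts at a DNA element called the CArG box, mostly on cytoskeletal and immediate-early genes, and is not counted among the core pluripotency factors.

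Total counts were between 26321602 and 36680156 per library. The targeted gene, Srf, stood at 34.5 ± 4.14 CPM with the intact allele and at 3.97 ± 0.707 CPM (SD, n = 3), or 11.5% of that level, after its deletion. SRF protein was not measured here, and the source of the remaining Srf counts was not tested. CPM here are counts scaled to a common library total with TMM (trimmed mean of M values). Library WT replicate 2 stood apart from the others, with a chi-square per degree of freedom of 14.1 and 17.1 against WT replicates 1 and 3, while the other 4 pairs of replicates had between 1.92 and 5.56. Results that rest on it are therefore given with and without it. Nothing states that the replicates came from separate cultures, so that p-values measure the spread between these libraries, which may be technical.

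Since the CArG box is the element that SRF binds, promoters of the 10 genes were searched for it where available. RefSeq (GRCm38.p6) gave no promoter for Sall4, Fbxo15, Dppa2 and Dppa4. Fbxo15 and Dppa2, which are called as changed below, were thus not searched. For the other 6 genes there were 7 promoters, Pou5f1 having 2 start sites. The 250 bases before the start held no CArG box in any of these 7 promoters, against 1.47% of 32851 promoters of all genes with one on either strand. The octamer ATGCAAAT, the OCT4 part of the composite site, was in none of the 7 either (present in 526 of all promoters). The GC box GGGCGG was in 3 of 7 (32.7% of all) and the SOX site CATTGT in 2 of 7 (10.7% of all). No motif was searched for outside this window, where enhancers lie. The main Pou5f1 promoter (chr17:35505782-35506031, plus strand) and the Sox2 promoter (chr3:34649745-34649994, plus strand) are shown because these are the core factors. The promoter of Srf itself (chr17:46556163-46556412, minus strand) is shown for contrast, since it holds 2 CArG boxes. Each runs 5′ to 3′ and ends at the base before the start. Capitals mark a CArG box, the octamer, a SOX site or a GC box on either strand.
Pou5f1: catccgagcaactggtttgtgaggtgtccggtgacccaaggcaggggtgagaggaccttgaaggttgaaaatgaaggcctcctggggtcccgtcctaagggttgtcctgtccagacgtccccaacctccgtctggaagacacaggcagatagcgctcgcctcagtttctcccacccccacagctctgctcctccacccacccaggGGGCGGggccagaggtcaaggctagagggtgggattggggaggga
Sox2: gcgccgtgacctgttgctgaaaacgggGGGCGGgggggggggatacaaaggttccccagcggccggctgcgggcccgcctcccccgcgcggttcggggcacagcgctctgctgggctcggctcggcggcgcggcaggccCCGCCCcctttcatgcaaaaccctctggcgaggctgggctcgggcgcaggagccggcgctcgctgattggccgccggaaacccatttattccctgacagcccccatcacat
Srf: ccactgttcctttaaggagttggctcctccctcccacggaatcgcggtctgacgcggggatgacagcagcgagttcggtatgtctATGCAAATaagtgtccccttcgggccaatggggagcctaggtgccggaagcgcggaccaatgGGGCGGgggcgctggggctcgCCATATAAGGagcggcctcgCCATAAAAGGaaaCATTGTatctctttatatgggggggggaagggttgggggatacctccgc
In the Pou5f1 promoter the only capitals are a GC box that begins 45 bases before the start. In that of Sox2 they are 2 GC boxes, 1 on each strand. In that of Srf the CArG boxes begin 82 and 62 bases before the start, and its other capitals are the octamer, a GC box and a SOX site. A match or its absence describes these letters alone.

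Levels were first compared between the genes, per kilobase of annotated exon (GENCODE M21, GRCm38), because longer transcripts yield more reads. Pou5f1 was the highest of the 10 in both groups, at 364 ± 23.3 CPM per kb in WT against 344 ± 5.05 CPM per kb in SRF KO (SD, n = 3). This was above 99.4% of the 14244 genes that were tested and had an exon length, in both groups. Sox2, L1td1 and Utf1 followed in WT at 228 ± 20.8, 203 ± 18.3 and 194 ± 48.9 CPM per kb, with ranges that overlapped from one to the next, so that their order is not resolved. Below them, without overlap between neighbours in WT, came Lin28a (116 CPM per kb), Dppa4 (76.8), Sall4 (63.1), Nr0b1 (52.3), Dppa2 (46.6) and Fbxo15 (24.7). The lowest WT value of Nr0b1 (48.59) and the highest of Dppa2 (48.58) all but met, so that the order of these 2 in WT is not resolved either. Fbxo15, the lowest, still lay above 85.9% of these tested genes in WT. In SRF KO the same genes took the first and the last place, and Dppa2 stood above Nr0b1, at 61.1 against 47.2 CPM per kb. The counts behind these levels ran from 1670 for Fbxo15 to 31092 for Pou5f1, so that counting error alone was at most 2.45% of a value.

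**Figure D1:**
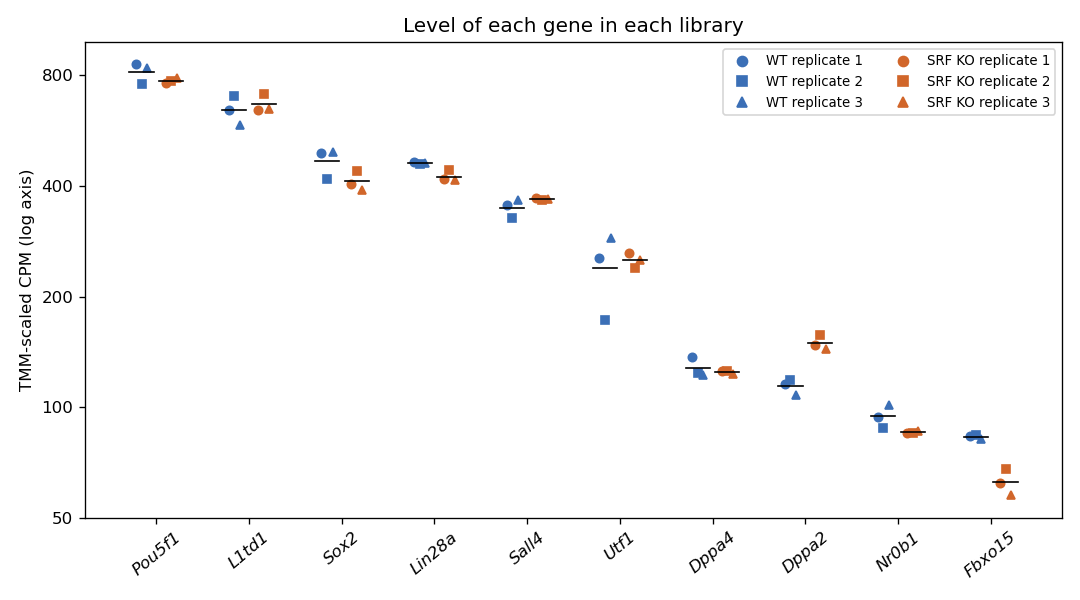
TMM-scaled CPM (log axis) of the 10 genes in each of the 6 libraries, ordered by the WT mean. Points are libraries (circle, square and triangle for replicates 1, 2 and 3) and black lines are group means. The 3 SRF KO points lie under all WT points for Fbxo15 and above all of them for Dppa2, the 2 genes called, and the groups also do not overlap for Lin28a, Nr0b1 and Sall4, by smaller margins.

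The comparison of SRF KO with WT asked whether the core program moved when Srf was deleted. Of the 10 genes, 1 rose (Dppa2), 1 fell (Fbxo15) and 8 did not pass the threshold of 0.05 on the adjusted p. The test was the quasi-likelihood test of edgeR, adjusted after Benjamini and Hochberg over all 15611 entries tested. All adjusted p-values below are from this test unless another is named. The background was high: 42.4% of the 14778 genes tested were called, 21.2% higher and 21.3% lower, against 2 of these 10. The median log2 fold change (SRF KO over WT) was -0.06 over the 10 genes and -0.01 over all genes tested. Values of the 2 groups did not overlap for 5 of the 10 genes, against 52.7% of all genes. Summed over the 10 genes, the level was between 3266 and 3405 CPM in SRF KO and between 3253 and 3498 CPM in WT, so that the groups overlapped.

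Pou5f1, the POU-domain factor OCT4 (ENSMUSG00000024406.16, chr17:35506018-35510772, plus strand), was at 761, 774 and 784 CPM in SRF KO replicates 1 to 3. In WT replicates 1 to 3 it was at 859, 759 and 837 CPM. The lowest value of all was that of WT replicate 2, so that the groups overlapped. The log2 fold change was -0.08 (SE 0.05, adjusted p 0.258), and the 95% interval put the SRF KO level between 86.9% and 103% of WT. Without WT replicate 2 the change was -0.13 (SE 0.04) and passed the threshold (adjusted p 0.0134). The interval thus holds only small changes of Pou5f1, and a small decrease was called only when this 1 library was left out.

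Sox2, the HMG-box factor that pairs with OCT4 (ENSMUSG00000074637.7, chr3:34650405-34652461, plus strand), was at 404, 440 and 391 CPM in SRF KO and at 491, 419 and 495 CPM in WT. SRF KO replicate 2 lay above WT replicate 2, and the other SRF KO libraries lay under all WT libraries. On the log2 scale the difference was -0.19 (SE 0.07), and its adjusted p of 0.0506 lay just outside the threshold. The SRF KO level was between 79.0% and 97.7% of WT by the 95% interval, which is not adjusted for the number of genes. It passed the threshold with the replicate number as a block (-0.19, adjusted p 0.0291), without WT replicate 2 (-0.26, adjusted p 2.12e-04) and in 5 more of the 15 alternatives, and kept its sign in all 15. Sox2 lies within the noncoding gene Sox2ot on the same strand, which was at only 0.655 ± 0.176 CPM in WT and 0.866 ± 0.198 CPM in SRF KO (SD, n = 3).

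Sall4, a zinc-finger factor that binds with OCT4 and keeps ESCs from differentiating (ENSMUSG00000027547.17, chr2:168748332-168767943, minus strand), was at 370, 367 and 370 CPM in SRF KO. In WT it was at 355, 327 and 365 CPM. The 3 SRF KO values lay above all WT values, but by little. The log2 fold change of 0.08 (SE 0.05) did not pass the threshold (adjusted p 0.258), with an interval from 97.6% to 114% of WT, and it was 0.04 without WT replicate 2. Nr0b1, the orphan nuclear receptor DAX1, a partner of OCT4 in ESCs (ENSMUSG00000025056.4, chrX:86191764-86195947, plus strand), was at 85.2, 84.9 and 85.9 CPM in SRF KO and at 94.1, 87.8 and 101.5 CPM in WT. All SRF KO values lay under all WT values. The log2 fold change of -0.15 (SE 0.06) missed the threshold (adjusted p 0.0587), and passed it with the replicate block (-0.15, adjusted p 0.0172) and without WT replicate 2 (-0.19, adjusted p 0.00195). Of these 4 transcription factors, none was called in the main edgeR fit, and Sox2 and Nr0b1 lay so near the threshold that other settings with all 6 libraries also called them, such as gene entries alone (adjusted p 0.0377 and 0.0475).

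**Figure D2:**
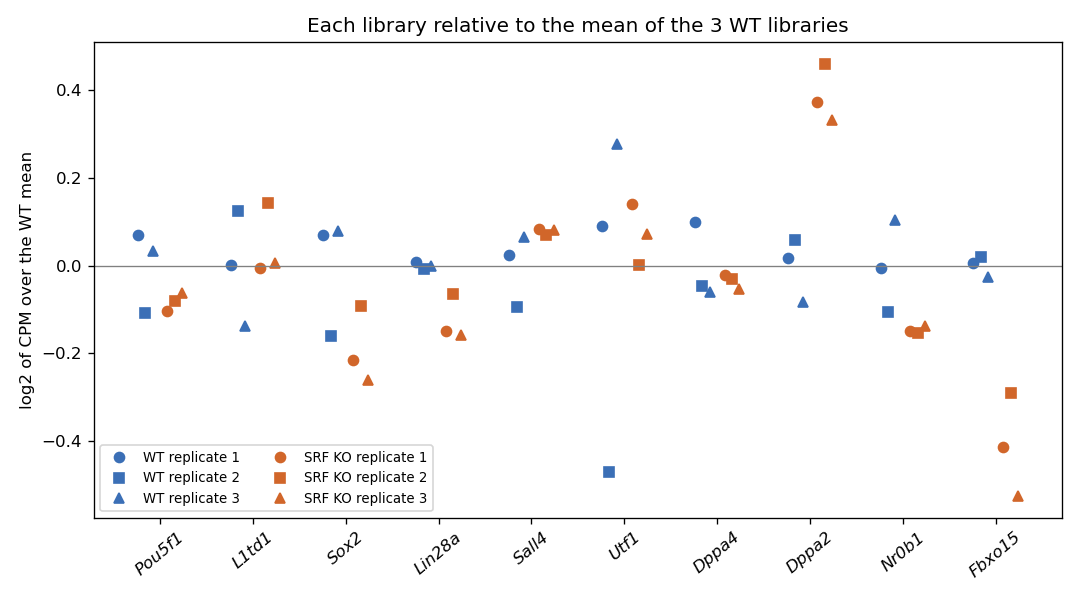
Log2 of each library's CPM over the mean of the 3 WT libraries, for the 10 genes in the same order; symbols as in the plot of levels. WT replicate 2 (blue squares) lies far below the other WT libraries for Utf1 and is the lowest WT library for Pou5f1, Sox2, Sall4 and Nr0b1.

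The RNA-binding proteins differed little. Lin28a, which blocks the maturation of let-7 microRNAs (ENSMUSG00000050966.9, chr4:134003330-134018841, minus strand), was at 416, 442 and 414 CPM in SRF KO and at 465, 459 and 462 CPM in WT. The groups did not overlap, and of the 10 genes this one had the smallest coefficient of variation (CV) between WT libraries, 0.592%. Its log2 fold change was -0.12 (SE 0.05, adjusted p 0.0549), with a 95% interval from 85.5% to 98.6% of WT. The change was past the threshold with gene entries alone (-0.13, adjusted p 0.0497) and with the replicate block (-0.12, adjusted p 0.0152). It also passed without WT replicate 2 (-0.12, adjusted p 0.0198). L1td1, an RNA-binding protein derived from the first open reading frame of a LINE-1 element (ENSMUSG00000087166.9, chr4:98726734-98738480, plus strand), was at 641, 711 and 646 CPM in SRF KO. Its WT values were 644, 702 and 586 CPM. Replicate 2 was the highest library of each group, and the groups overlapped (log2 fold change 0.05, SE 0.07, adjusted p 0.601). The 95% interval was 93.3% to 115% of WT. Without WT replicate 2 the log2 fold change was 0.12 (adjusted p 0.0661).

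Utf1 and Fbxo15 are both known as targets of OCT4 and SOX2. Utf1, a chromatin-bound protein of undifferentiated cells (ENSMUSG00000047751.9, chr7:139943789-139945112, plus strand), was at 263, 239 and 251 CPM in SRF KO. In WT it was at 254, 172 and 289 CPM, the widest spread of the 10 genes, with a CV of 25.1%. The log2 fold change was 0.07 (SE 0.14, adjusted p 0.712), with an interval from 85.3% to 130% of WT. Without WT replicate 2, which was far under the other 5 libraries, it turned to -0.11 (SE 0.05, adjusted p 0.106), so that no direction can be given for Utf1. Fbxo15, an F-box protein used as a reporter of reprogramming (ENSMUSG00000034391.12, chr18:84934782-84981473, plus strand), was at 62.4, 68.0 and 57.7 CPM in SRF KO. In WT it was at 83.4, 84.2 and 81.7 CPM. All SRF KO libraries lay under all WT libraries, as for 26.5% of all genes. It fell by 0.41 on the log2 scale (SE 0.06, adjusted p 2.78e-04), to 75.4% of WT with an interval from 68.7% to 82.7%. In the 6 fits that each left out a library the change was between -0.46 and -0.35 and was called every time. Timm21 overlaps Fbxo15 on the opposite strand, and whether the counts used strand is not given in the sources used here. Timm21 had 19.9 ± 1.25 CPM in WT and 21.3 ± 1.23 CPM in SRF KO (SD, n = 3, adjusted p 0.325).

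Dppa2 and Dppa4 lie next to each other on chromosome 16, with Dppa4 first (chr16:48283733-48294237, ENSMUSG00000058550.15) and Dppa2 starting 9671 bases after its end (chr16:48303908-48319723, ENSMUSG00000072419.5), both on the plus strand. Their SAP-domain proteins form a complex that keeps developmental promoters open and is needed for 2-cell genes in ESCs. Dppa2 was at 148, 157 and 144 CPM in SRF KO and at 116, 119 and 108 CPM in WT. All SRF KO values lay above all WT values, as for 26.2% of all genes. It rose by 0.39 on the log2 scale (SE 0.06, adjusted p 1.78e-04), to 131% of WT with an interval from 120% to 142%, and was called in each of the 6 fits without a library, between 0.35 and 0.42. Dppa4 was at 126, 125 and 123 CPM in SRF KO and at 137, 124 and 122 CPM in WT, with overlapping groups. Its log2 fold change was -0.04 (SE 0.05, adjusted p 0.633), and the interval was 89.9% to 106% of WT. It was -0.05 without WT replicate 2 (adjusted p 0.378). Annotated pseudogene-like copies bear on both: 6 other GENCODE genes have transcripts at least 90% identical to Dppa2 over 150 bases or more, and 2 to Dppa4. The closest were Gm9788, 99.3% identical over 906 bases, and Gm14058, 98.9% identical over 735 bases. None of these 8 has a row in the table, and how reads that fit several copies were counted is not given in the sources used here, so that the values of Dppa2 and Dppa4 are uncertain to that extent.

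**Figure D3:**
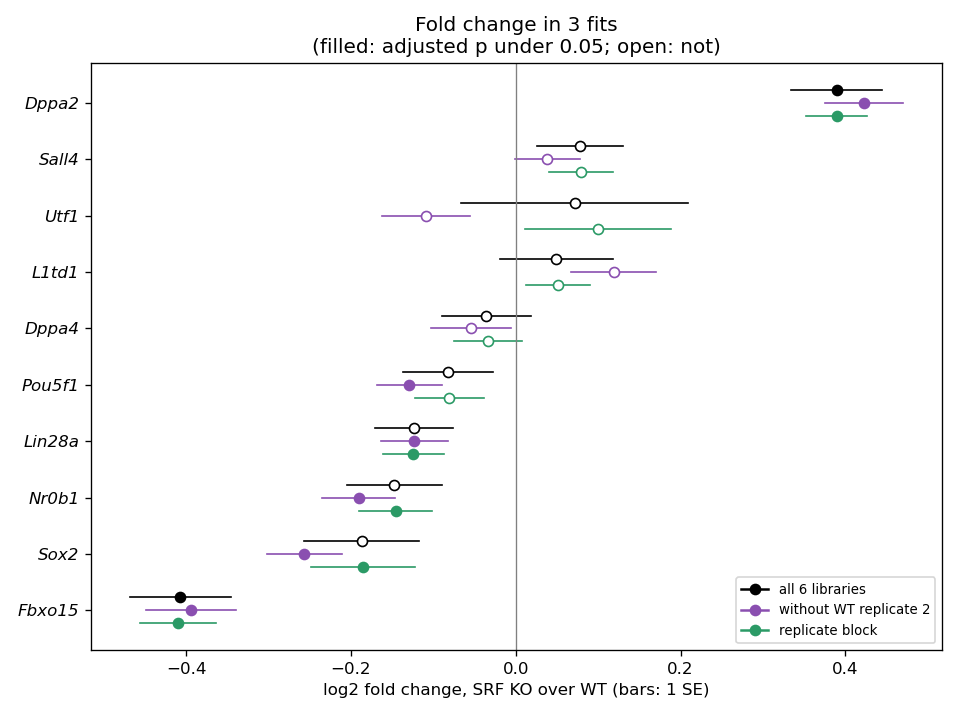
Log2 fold change of SRF KO over WT with 1 SE for each gene, fitted with all 6 libraries (black), without WT replicate 2 (purple) and with the replicate number as a block (green). Filled points pass an adjusted p of 0.05. Fbxo15 and Dppa2 are filled in all 3 fits, Sox2, Nr0b1 and Lin28a in the latter 2, and Utf1 is on the other side of 0 without WT replicate 2.

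Leaving out WT replicate 2 changed the picture most. Of the 10 genes 6 were then called, against 49.7% of all genes. The 5 lower were Pou5f1, Sox2, Lin28a, Nr0b1 and Fbxo15 (25.4% of all genes were lower), and the 1 higher was Dppa2 (24.3% of all). With the replicate block, 5 were called, against 50.8% of all genes. Sox2, Lin28a, Nr0b1 and Fbxo15 were lower (26.1% of all genes) and Dppa2 was higher (24.8% of all). The decreases other than that of Fbxo15 were small in these fits, between -0.26 (Sox2) and -0.12 (Lin28a) on the log2 scale. The CV between WT libraries exceeded that between SRF KO libraries for 8 of the 10 genes, against 75.7% of 4186 genes with a mean of at least 50 CPM. Its median over the 10 genes was 6.33% in WT and 4.04% in SRF KO.

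Ratios between 2 genes of one library do not depend on how libraries are scaled, and 5 pairs were compared. The counts of Dppa2 per count of Dppa4 were 1.17, 1.25 and 1.17 in SRF KO and 0.844, 0.961 and 0.880 in WT. Every SRF KO library was above 1 and every WT library under it. The difference had p = 0.1 in an exact two-sided permutation test, the smallest that 3 against 3 libraries allow (adjusted over the 5 pairs, 0.25). Fbxo15 per Sox2 was 0.179 ± 0.0195 in WT and 0.152 ± 0.00396 in SRF KO (SD, n = 3, exact permutation p = 0.1, adjusted 0.25), without overlap. WT replicate 2 stood apart here at 0.201, while WT replicates 1 and 3 were at 0.170 and 0.165, nearer to the highest SRF KO value of 0.155. Sox2 per Pou5f1 was 0.533 ± 0.0348 in SRF KO and 0.572 ± 0.0196 in WT, and the groups overlapped (SD, n = 3, exact permutation p = 0.2, adjusted 0.25). The ratio of Fbxo15 to Utf1 had an exact permutation p of 0.2 (adjusted 0.25) and that of Utf1 to Pou5f1 one of 0.5 (adjusted 0.5). In both, WT replicate 2 stood apart. No pair could pass 0.05 in this design.

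**Figure D4:**
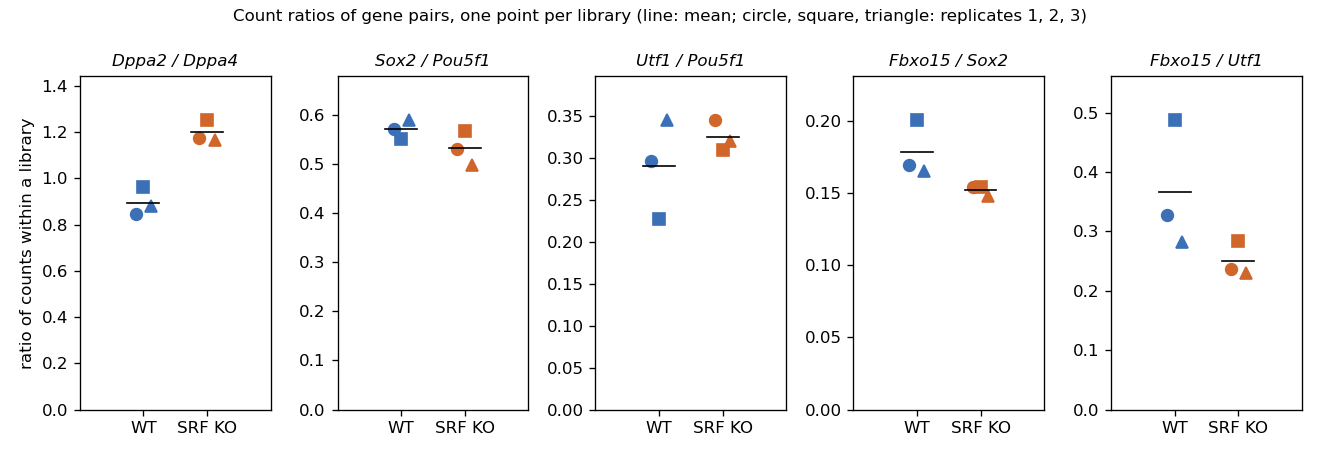
Ratio of the counts of 2 genes within each library, for 5 pairs; each axis starts at 0, symbols give the replicate and lines the group means. The 3 SRF KO ratios of Dppa2 to Dppa4 lie between 1.17 and 1.25, all above the WT ratios. WT replicate 2 stands apart in both ratios with Utf1 and in that of Fbxo15 to Sox2.

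Other genes of the network were then set beside these 10. Of 13 regulators of the naive state, 4 rose, 7 fell and 2 were not called, with a median log2 fold change of -0.34. That is 11 of 13 called, against 42.4% of all genes tested (21.2% higher and 21.3% lower). Dppa3, a maternal factor that protects DNA methylation, fell by 2.08 on the log2 scale, the homeodomain factor Nanog by 0.79 and Tfcp2l1 by 0.70, while the homeobox gene Gbx2 rose by 0.91 (adjusted p at most 5.15e-07 for each). Of 18 further ESC markers, 4 rose, 8 fell and 6 were not called (12 of 18 called), with a median of -0.10. Tcl1, a coactivator of the kinase Akt, fell by 0.64, the Ras-like gene Eras by 0.50, Dppa5a by 0.42 and the tissue-nonspecific alkaline phosphatase Alpl, whose activity is a classical stain for ESCs, by 0.42 (adjusted p at most 2.24e-04). Among 8 genes known for composite OCT4-SOX2 elements, of which 4 are among the 10, Nanog, Lefty1 and Fbxo15 fell and 5 were not called, so that 3 of 8 were called against 42.4% of all genes. Lefty1, a Nodal antagonist, fell from 80.3 ± 8.09 to 51.4 ± 2.84 CPM (SD, n = 3). Without WT replicate 2, 5 of these 8 were lower, against 25.4% of all genes, and 1 was higher, against 24.3%.

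Lin28a acts on let-7, and 14 genes around that axis were examined. Of these 3 rose, 7 fell and 4 were not called (10 of 14 called, against 42.4% of all genes), with a median of -0.12. The chromatin protein Hmga2 and the transcription factor Myc rose by 1.26 and 1.10 on the log2 scale, and the mRNA-binding proteins Igf2bp2 and Igf2bp3 fell by 0.56 and 0.37 (adjusted p at most 1.05e-04). All 4 are known as let-7 targets, and they moved in both directions. The paralog Lin28b, chosen after its value was seen, had 65.2 ± 1.76 CPM in WT and 66.6 ± 6.50 CPM in SRF KO (SD, n = 3, adjusted p 0.760). MicroRNAs were not analysed here.

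Of 14 listed 2-cell genes that need DPPA2 and DPPA4, 10 were tested. All 10 were called as raised in SRF KO, against 21.2% of all genes tested, and their median change was 1.57 on the log2 scale. They include the transposable element subfamilies MERVL-int and MT2_Mm, whereas the 21.2% covers gene entries alone. Usp17la and Usp17lc (0.181 and 0.179 CPM in WT) passed the filter on low counts only through SRF KO. The direction of these genes was thus largely fixed in advance. Tdpoz4 and Zfp352 were too low in both groups to be tested, and Duxf3 and Zscan4e had no entry. MERVL-int, the internal part of an endogenous retrovirus of 2-cell embryos, rose by 0.66 on the log2 scale, and Zscan4f from 2.38 ± 0.505 to 6.08 ± 0.902 CPM (SD, n = 3). On the log2 scale the rise was 1.60 for Zscan4b and 1.57 for Usp17le. These belong to multicopy families that share reads, so that their single values are uncertain. That Dppa2 was higher while Dppa4 was not called is the measured state of the pair, and its part in the 2-cell genes was not tested.

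**Figure D5:**
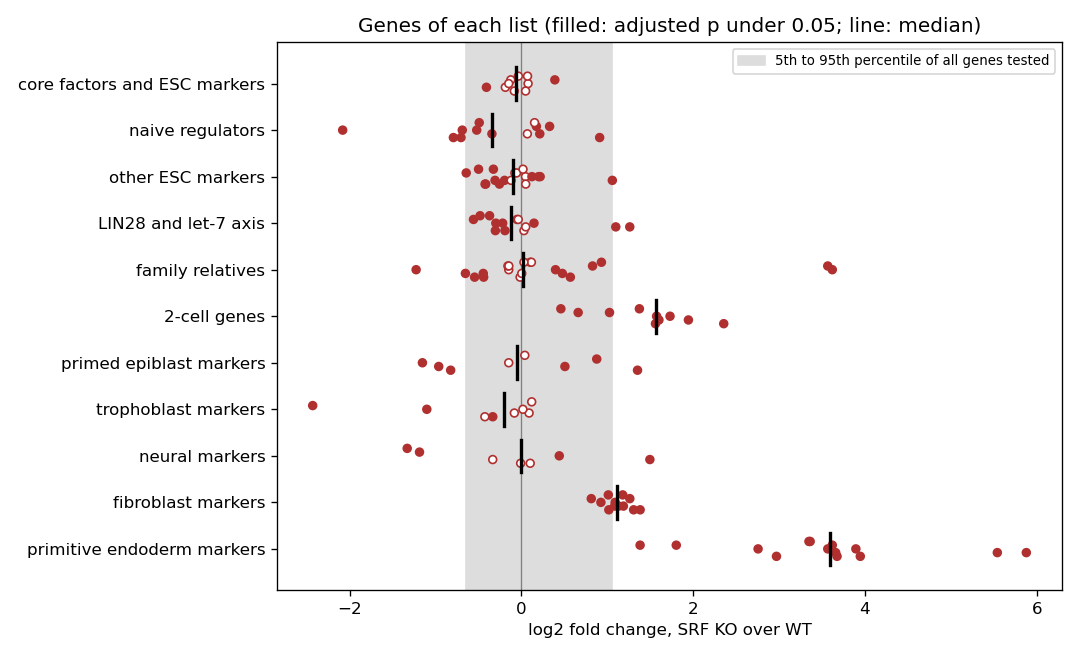
Log2 fold change of SRF KO over WT for each tested gene of the lists (points; filled where the adjusted p is under 0.05), with each list's median (black line) and the range from the 5th to the 95th percentile of all genes tested (grey). The 10 core factors and markers lie within -0.41 and 0.39, while the primitive endoderm markers have a median of 3.59.

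Markers of other cell types were measured beside these genes, since in bulk RNA fewer cells of a type and less RNA per cell cannot be told apart. Over all genes tested, 21.2% were higher and 21.3% lower. Of 14 primitive endoderm markers, 14 were higher in SRF KO, and their summed level was between 3869 and 4139 CPM in SRF KO and between 636 and 675 CPM in WT. Hnf4a and Foxa2 (0.106 and 0.318 CPM in WT) passed the filter on low counts only through SRF KO, so that their direction was largely fixed in advance. The most abundant endoderm markers, Sparc and Col4a1, both of the basement membrane, rose by 1.80 and 3.36 on the log2 scale. Of 12 fibroblast markers, 12 were higher, with sums between 1134 and 1374 CPM in SRF KO and between 553 and 631 CPM in WT. Their most abundant genes Bgn and Col1a1 rose by 1.19 and 1.02. Of 8 trophoblast markers tested (9 listed), 3 were lower and 5 not called, with sums between 86.8 and 91.4 CPM in SRF KO and between 124 and 135 CPM in WT. Of the most abundant of them, Tfap2c fell by 1.10, from 71.0 to 33.1 CPM, which made up most of the fall of that sum. Krt8 was not called (0.12). The primed epiblast list had 3 of 8 higher and 3 lower (sums of 860 to 880 CPM in SRF KO and 672 to 698 CPM in WT), and the neural list 2 of 7 higher and 2 lower (93.5 to 98.3 and 99.4 to 102 CPM). Among the neural calls, Neurog1 (lower, 0.255 CPM in SRF KO) passed the filter on low counts only through WT. Its direction was thus largely fixed in advance. Zic1 (higher) was near that filter in WT, at 0.472 CPM. The DNA methyltransferase Dnmt3a rose by 0.88, from 243 to 447 CPM, and this gene alone made the rise of the primed epiblast sum. Dnmt3b was not called (0.04), and of the neural genes Nes rose by 0.44 and Tubb3 was not called (-0.01). No marker of these 5 lists was at 0 in every library. The part of endoderm-like or fibroblast-like RNA in the small changes of the 10 genes was not tested.

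Last, for each of the 10 genes the gene with the most similar profile was sought, by Pearson's r of log2 CPM over the 6 libraries among 9084 other genes with a mean of at least 10 CPM. With 6 libraries that share their groups and depths, high values are common, and r is given as a description. The nearest gene was Fam104a for Pou5f1 (r = 0.997), Ddt for Sox2 (0.989), Adgrl1 for Sall4 (0.997), Pik3cb for Lin28a (0.996) and Psmd3 for Utf1 (0.996). It was Hsph1 for L1td1 (0.995), Plekha8 for Fbxo15 (0.998), Pacs1 for Nr0b1 (0.995), Jarid2 for Dppa2 (0.997) and Dgka for Dppa4 (0.985). None of the 10 genes was the nearest of another, and Dppa4 had the fewest genes with r over 0.95, namely 7, against 440 for Fbxo15 and 394 for Dppa2. Jarid2, a partner of the Polycomb complex and itself on the list of ESC markers, rose by 0.20 on the log2 scale (SE 0.05, adjusted p 0.00520).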

How the data were processed

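Counts of 6 libraries were deposited as 1 table of whole numbers per gene and transposable element subfamily, without normalization, judged from the values. Per the labels' protocols, paired reads of 150 bp from TRIzol-extracted total RNA were cleaned of adaptor, low-quality and empty reads. The submitters' processing notes name the build mm10 and DESeq2. The aligner, counter, annotation and strand setting are not given in the sources used here. Columns were matched to samples by title.

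One edgeR 4.0.16 model (R 4.3.3) covered all entries: filterByExpr (minimum count 10), TMM scaling, quasi-likelihood test, group as the only term, Benjamini-Hochberg adjustment over 15611 entries, threshold 0.05. Alternatives were other scalings, no filter, gene entries alone, DESeq2 1.42.0, stricter thresholds, each library left out and a replicate block. Simulated data of 15611 entries had the depths of these libraries, 200 changed entries and the same dispersion for every entry. There edgeR recovered 97% of changes of 1 and 75% of changes of 0.5 on the log2 scale, with 3.91% false calls. The real libraries had far more called genes, unequal spreads and an outlying library, so that these rates do not carry over to them. Exon lengths were found in GENCODE M21 for 96.4% of the genes tested.

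Same-numbered libraries deviated together from their group means over 9380 entries with a mean of at least 10 CPM (r = 0.193, 0.546 and 0.355 for replicates 1 to 3), so blocked values are given where they change a call. The pairing comes from the data, not the labels: over all entries r was 0.0424, 0.203 and 0.0965, and SRF KO replicate 1 resembled WT replicate 3 (0.426) more than WT replicate 1.

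The genes, lists and tests were chosen with earlier results of these data known. Named genes were the 10 members, Srf, from each related list at most 4 called genes (those of smallest p), the 2 most abundant genes of each cell type list, the nearest profile of each member, and genes over or next to a member.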

Additional observations from a re-analysis of the deposited data

How the results depend on the processing

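Fbxo15 (lower) and Dppa2 (higher) kept their direction and call in 14 of 15 alternatives, the exception being a minimum change of 1 on the log2 scale in either direction, under which no gene of the 10 was called (0 higher and 0 lower). The number lower, 1 in the main result, was 2 with DESeq2 size factors, with no filter and under DESeq2's own test (with Sox2), 4 with gene entries alone and 4 with the replicate block. Across the fits that each left out a replicate it was between 1 and 5 (5 when WT replicate 2 was dropped, 2 when SRF KO replicate 2 was), and the cause was not tested. Directions turned for Utf1 without WT replicate 2 (-0.11), for L1td1 without WT replicate 3 (-0.016), and for Dppa4 with library totals alone (0.0014) and without WT replicate 1 (0.018); none of these 4 values was called. Leaving out each replicate in turn gave values from -0.11 to 0.23 for Utf1, from -0.016 to 0.12 for L1td1 and from -0.067 to 0.018 for Dppa4. Over all genes, a fold of at least 1 on the log2 scale left 817 higher and 260 lower, and the stricter threshold of 0.01 left 2013 lower, as stricter thresholds do by construction. The median of all genes stayed between -0.014 and 0.024 under every scaling and fit. With the replicate block, Sox2 (-0.19), Lin28a (-0.12) and Nr0b1 (-0.15) passed the threshold and no other call of the 10 changed. Depth limits none of the 10 genes. With 3 libraries per group, 1 library can decide changes of this size.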

Other observations

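Of 22 family members of the POU, SOX, SALL, LIN28 and NR0B groups, 20 were tested, of which 7 rose, 5 fell and 8 were not called, with a median log2 fold change of 0.02. That is 12 of 20 called, against 42.4% of all genes tested, and the difference was not tested. Sox7 and Sox17, endoderm factors of the SOX family, rose from 1.55 ± 0.124 to 19.3 ± 1.70 CPM and from 0.486 ± 0.0318 to 5.81 ± 0.470 CPM (SD, n = 3). Both also stand on the endoderm marker list. Sox15, a SOX gene of pluripotent cells and muscle, fell from 16.8 ± 2.50 to 7.18 ± 0.601 CPM, and Sall1, a paralog of Sall4 that is expressed in ESCs, from 197 ± 4.89 to 125 ± 3.03 CPM (SD, n = 3). On the log2 scale these were changes of -1.23 and -0.65, with edgeR adjusted p of 7.65e-06 and 9.82e-07. Sall4 itself was at 0.08 and was not called. Of 14 genes tested that overlap the 10 or lie next to them, 1 was higher (Mageb4, after Nr0b1) and 4 were lower (Tcf19, Atp11b, Kndc1 and Kank4). These 5 of 14 are near the share called over all genes, 42.4%. Kndc1, the coding gene next before Utf1 at a distance of 2252 bases, fell by 0.25 on the log2 scale (edgeR adjusted p 0.0251), and Tcf19, 1962 bases after Pou5f1, by 0.51 (edgeR adjusted p 0.00154).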
